A study of Mus musculus with 12 samples.

Results

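The immunoglobulin genes of mouse colon are described here across 12 libraries: the constant-region genes of the heavy, kappa and lambda chains and the variable (V) segments from which the chains are assembled. Members were the table rows named Ighv, Igha, Ighd, Ighe, Ighg, Ighm, Igkv, Igkc, Iglv or Iglc, the gene Ighmbp2 left out as no immunoglobulin gene, with at least 100 counts summed over the 12 libraries. Of 35841 rows, 277 were immunoglobulin genes of these names and 211 reached 100 counts. They comprised 8 heavy-chain constant genes, Igkc, 3 lambda constant genes, 100 Ighv, 96 Igkv and 3 Iglv segments, and 5 of the V segments were annotated as pseudogenes. The 66 rows below the threshold were 34 Ighv, 19 Igkv, 12 heavy D segments and 1 lambda constant gene. Just inside it lay Igkv4-73 with 117 counts, Ighv12-3 with 119 and Igkv4-92 with 134, and just outside Ighv4-2 with 96, Igkv3-11 with 86 and Igkv18-36 with 82. The heavy-chain loci lie on chromosome 12, the kappa locus on chromosome 6 and the lambda locus on chromosome 16. The threshold used the sum over all groups together, and 9 of the 211 members, all V segments, had fewer than 100 counts outside the group where they were highest (3 in DSS+ImP, 1 in DSS, 2 in ImP and 3 in Ctrl). For those 9 the choice was not independent of the groups, and counts over members include them.

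All libraries were poly(A)-selected RNA of colon labelled wild type, and no strain, sex or age was given. The 4 groups had 3 libraries each: DSS+ImP (libraries 2, 3 and 4), DSS (2, 3 and 5), ImP (1, 3 and 4) and Ctrl (1, 4 and 5), the last labelled as having no treatment. DSS is dextran sulfate sodium, a drinking-water agent that injures the colonic epithelium and is a standard model of colitis. The labels do not spell out ImP, and the series title names polysaccharides of Angelica dahurica. The series text puts colitis with or without ImP at 7 days and does not say when ImP alone was given. Whether the 3 libraries of a group came from separate mice is not stated, so p-values measure the spread between these libraries, which may be technical.

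Antibodies are built from heavy and light chains, each with a constant region that sets the class and a variable region that binds antigen. In the gut wall most antibody comes from plasma cells that make IgA, whose heavy chain is encoded by Igha, and the epithelial receptor Pigr carries that IgA into the lumen. IgM and IgD (Ighm, Ighd) mark B cells that have not switched class, and the IgG classes (Ighg1, Ighg2b, Ighg2c, Ighg3) are the main antibodies of serum. A V segment is chosen by DNA recombination in each B cell, so the mix of segments in tissue RNA reflects which B-cell clones contributed RNA and how much each one made.

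The V segments on which the results turn are shown first, as the last 280 bases of the germline transcript in GENCODE M21, found by gene identifier and written in the sense direction. Ighv9-3 was the most abundant heavy segment in every library, and its relative Ighv9-2 is shown with it because it differed between groups in another direction. Capitals in these lines mark the 14 bases at which each differs from the other.
Ighv9-3: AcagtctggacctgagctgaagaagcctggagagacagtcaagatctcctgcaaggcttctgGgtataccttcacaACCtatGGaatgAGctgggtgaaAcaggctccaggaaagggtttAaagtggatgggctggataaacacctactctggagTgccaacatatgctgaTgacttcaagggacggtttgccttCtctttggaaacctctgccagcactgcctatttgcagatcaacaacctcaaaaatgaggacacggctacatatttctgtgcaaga
Ighv9-2: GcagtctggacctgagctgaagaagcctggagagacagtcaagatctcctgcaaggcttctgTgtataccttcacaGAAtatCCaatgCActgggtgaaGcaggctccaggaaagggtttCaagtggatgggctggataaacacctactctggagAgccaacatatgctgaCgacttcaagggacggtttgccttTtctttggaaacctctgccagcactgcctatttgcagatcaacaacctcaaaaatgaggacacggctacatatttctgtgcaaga
Ighv1-72 and Igkv17-121 took a high share of V counts in the ImP libraries, and Igkv15-103 was the leading kappa segment in 9 of 12 libraries. Capitals mark the codon of the conserved cysteine that ends the framework before the antigen-contact loop.
Ighv1-72: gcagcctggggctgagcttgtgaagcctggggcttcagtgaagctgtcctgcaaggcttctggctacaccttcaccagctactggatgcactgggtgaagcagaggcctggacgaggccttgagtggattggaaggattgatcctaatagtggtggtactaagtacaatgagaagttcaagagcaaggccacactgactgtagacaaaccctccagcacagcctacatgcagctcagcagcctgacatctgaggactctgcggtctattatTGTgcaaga
Igkv17-121: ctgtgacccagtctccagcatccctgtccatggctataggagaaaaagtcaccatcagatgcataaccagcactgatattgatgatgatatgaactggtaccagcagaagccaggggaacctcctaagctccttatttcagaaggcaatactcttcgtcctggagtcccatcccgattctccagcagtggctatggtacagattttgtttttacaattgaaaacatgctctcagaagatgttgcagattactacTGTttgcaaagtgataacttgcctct
Igkv15-103: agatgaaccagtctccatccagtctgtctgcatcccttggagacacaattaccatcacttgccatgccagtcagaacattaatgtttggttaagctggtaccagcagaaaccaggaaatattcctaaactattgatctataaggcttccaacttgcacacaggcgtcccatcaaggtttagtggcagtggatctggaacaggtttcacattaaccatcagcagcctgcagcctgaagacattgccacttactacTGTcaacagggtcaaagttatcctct
Ighv1-62-3 is shown because it differs from Ighv1-72 at 2 of these 280 bases, here in capitals, so reads of one can be counted for the other.
Ighv1-62-3: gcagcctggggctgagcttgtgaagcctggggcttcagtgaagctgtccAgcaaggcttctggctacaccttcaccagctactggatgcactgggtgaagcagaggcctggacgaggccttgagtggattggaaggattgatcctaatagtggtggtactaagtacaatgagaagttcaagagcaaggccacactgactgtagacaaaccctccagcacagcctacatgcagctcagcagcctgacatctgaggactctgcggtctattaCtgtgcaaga
Likeness of this order was common: 104 of the 199 V members had another V gene at least 95% identical over these bases, and 2 had an identical one, so single-segment values are uncertain by the share of reads the counting could split. The IgG constant genes were less alike. The nearest pair, Ighg2b and Ighg2c, was 86.5% identical over the shortest transcript, and no window of 100 bases was shared exactly.

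Libraries held 55419380 to 67406087 counts. Summed transcripts of 12 liver genes reached 76.6 to 95.3 CPM (counts scaled to a common library size, with TMM factors) in Ctrl 1, 4 and 5 and DSS 2 and at most 10.9 in the other 8, while 11 pancreas genes reached 15.4 to 19.1 CPM in all 3 ImP libraries and in DSS 3 and 5, 5.65 in Ctrl 4 and at most 1.80 elsewhere. The 3 DSS+ImP libraries were low in both, so a difference between DSS+ImP and any other group cannot be told apart from a difference between these sets of libraries. A comparison of DSS with Ctrl is possible inside the 4 libraries high in liver transcripts, and one of ImP with DSS inside the 5 high in pancreas transcripts, and those values are given where they differ. The part of these traces in the results was not tested otherwise. Colonic epithelial markers (Epcam, Muc2, Car1 and 7 others) summed to 15670 to 37120 CPM, so the markers of the labelled tissue were present in every library.

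Immunoglobulin RNA took the largest mean share of counts in DSS+ImP libraries, and ImP libraries came next. Members made up 1.26%, 1.24% and 0.705% of counts in DSS+ImP 2, 3 and 4. DSS 2, 3 and 5 had 0.515%, 0.565% and 0.646%, ImP 1, 3 and 4 had 0.912%, 0.573% and 1.06%, and Ctrl 1, 4 and 5 had 0.452%, 0.622% and 0.609%. All 3 DSS+ImP libraries lay above all DSS and Ctrl libraries, whereas ImP 3 lay inside the Ctrl range. In bulk tissue, more cells of a type and more RNA per cell cannot be told apart.

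IgA led in every library. Igha, the IgA heavy chain, had 3340, 3036 and 2087 CPM in DSS+ImP, against 1964, 2093 and 2398 CPM in DSS. The ImP libraries had 3237, 2164 and 3358 CPM, against 1575, 2094 and 2157 CPM in Ctrl. DSS+ImP 4 lay inside the DSS range, while all 3 ImP libraries lay above Ctrl, ImP 3 by a small margin. The log2 change of Igha was 0.39 (SE 0.20) in DSS+ImP against DSS and 0.59 (SE 0.20) in ImP against Ctrl, and neither passed the threshold used throughout, an adjusted p below 0.05 in edgeR's quasi-likelihood test over all 22279 genes tested (adjusted p = 0.273 and 0.18 in edgeR). Igkc, the constant region of nearly all light chains here, had 2092, 2048 and 1258 CPM in DSS+ImP, 1066, 1133 and 1331 in DSS, 1758, 1291 and 1986 in ImP, and 910, 1082 and 1147 in Ctrl. Against Ctrl, Igkc rose in DSS+ImP by 0.78 on the log2 scale (SE 0.20, adjusted p = 0.0163 in edgeR) with no overlap, a call lost when DSS+ImP 2, DSS+ImP 3 or Ctrl 1 was left out (adjusted p 0.0569 to 0.0636 in edgeR).

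Among the constant genes, Ighg2c and Ighg2b, of the IgG classes, rose in DSS+ImP against both DSS and Ctrl. Ighg2c had 678, 930 and 271 CPM in DSS+ImP, against 96.4, 133 and 193 CPM in DSS, 225, 123 and 319 CPM in ImP, and 95.2, 106 and 123 CPM in Ctrl. Every DSS+ImP library was above every DSS and Ctrl library, and DSS+ImP 4 lay within the ImP range. Ighg2c rose in DSS+ImP against DSS by 2.15 on the log2 scale (SE 0.43, adjusted p = 0.0131 in edgeR), against Ctrl by 2.53 (SE 0.44, adjusted p = 0.00155 in edgeR) and against ImP by 1.49 (SE 0.42, adjusted p = 0.0455 in edgeR). The call against DSS was lost without DSS+ImP 3 or without DSS 2 (adjusted p = 0.0575 and 0.0547 in edgeR). The call against ImP was lost in 9 of the 12 fits that left out 1 library (adjusted p up to 0.191 in edgeR), all but those without DSS+ImP 4, DSS 2 or ImP 4. Ighg2b, the IgG class encoded beside it, had 356, 435 and 166 CPM in DSS+ImP, against 41.8, 63.5 and 71.6 CPM in DSS, 125, 54.2 and 241 CPM in ImP, and 24.2, 67.8 and 53.1 CPM in Ctrl. Again no DSS+ImP library overlapped DSS or Ctrl. Ighg2b rose by 2.43 against DSS (SE 0.53, adjusted p = 0.0191 in edgeR) and by 2.72 against Ctrl (SE 0.54, adjusted p = 0.00367 in edgeR). Leaving out DSS+ImP 2, DSS+ImP 3, DSS 2 or DSS 5 ended the first of these calls (adjusted p 0.0529 to 0.0768 in edgeR). In ImP against Ctrl the log2 changes were 1.04 for Ighg2c (SE 0.42, adjusted p = 0.251 in edgeR) and 1.54 for Ighg2b (SE 0.52, adjusted p = 0.166 in edgeR), with ImP 3 among the Ctrl values for Ighg2b.

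Other classes were scarce. Ighg1 had 22.2, 24.4 and 9.91 CPM in DSS+ImP, against 2.93, 5.63 and 13.5 CPM in DSS, 10.8, 3.89 and 16.2 CPM in ImP, and 11.4, 6.16 and 4.33 CPM in Ctrl, so the groups overlapped. Ighg3 had 40.1, 25.7 and 4.57 CPM in DSS+ImP, against 2.55, 17.1 and 5.78 CPM in DSS, and at most 9.81 CPM in ImP and Ctrl. Ighe, the IgE heavy chain, stayed at or below 0.527 CPM in every library. In edgeR none of these 3 passed the threshold in any comparison.

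Ighm and Ighd were high in the same 3 libraries, from DSS+ImP and ImP. Ighm, the IgM heavy chain, had 54.7, 57.3 and 23.0 CPM in DSS+ImP, against 25.4, 18.0 and 17.7 CPM in DSS, 35.0, 14.0 and 83.9 CPM in ImP, and 14.6, 21.6 and 20.03 CPM in Ctrl. Ighd, the IgD heavy chain, had 16.2, 22.2 and 4.48 CPM in DSS+ImP, against 4.37, 2.92 and 1.61 CPM in DSS, 5.03, 0.797 and 22.5 CPM in ImP, and 0.553, 1.18 and 1.38 CPM in Ctrl. DSS+ImP 2, DSS+ImP 3 and ImP 4 were the high libraries for both. The summed CPM of 14 B-cell genes (Ms4a1, Cd79a and others) was high in the same 3, at 129, 136 and 204 CPM, against 29.0 to 61.5 CPM in the other 9, and its part in these and the IgG values was not tested. Ighd rose in DSS+ImP against Ctrl by 3.78 on the log2 scale (SE 0.98, adjusted p = 0.0165 in edgeR), lost without DSS+ImP 3, Ctrl 1 or Ctrl 4 (adjusted p 0.0518 to 0.0662 in edgeR). Ighm passed in no comparison.

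**Figure D1:**
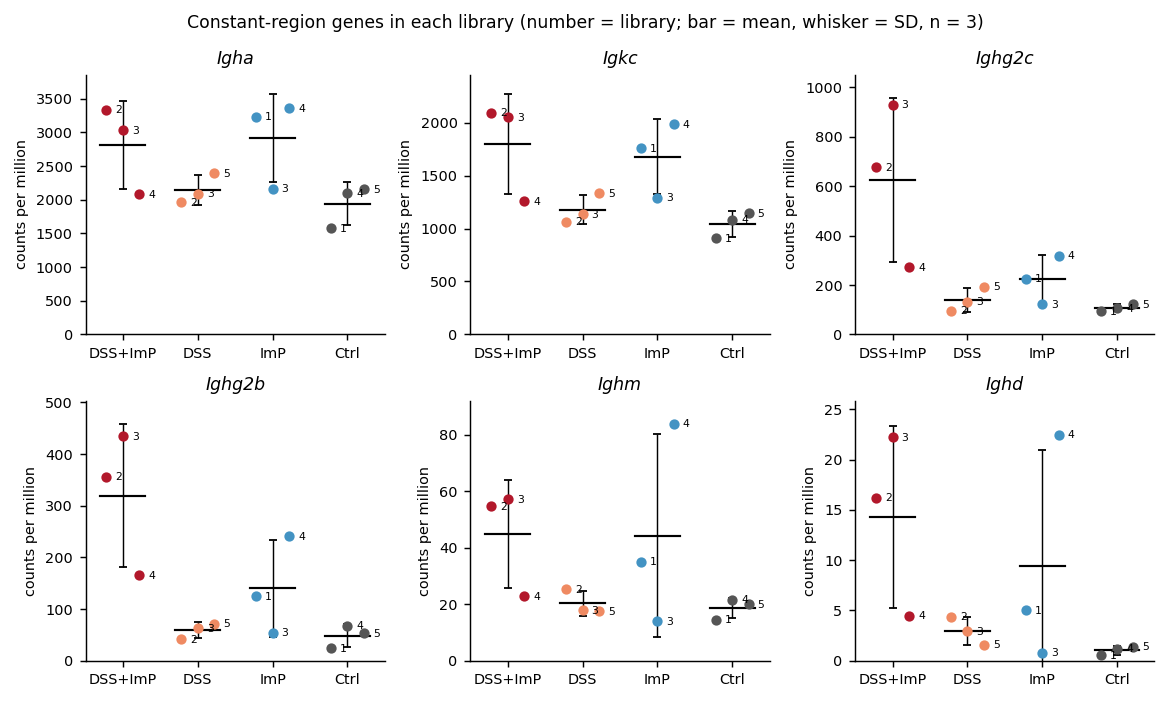
CPM of 6 constant-region genes in each library, by group, with linear axes from 0; points are libraries with their number, bars the mean and whiskers the SD of 3, and the ImP whisker for Ighd is cut at 0. DSS+ImP 2 and 3 stand highest for Ighg2c (678 and 930) and Ighg2b (356 and 435), and ImP 4 stands with them for Ighm (83.9) and Ighd (22.5).

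The balance of isotypes differed too. By deposited FPKM (values scaled to transcript length and library size), Igha made up 63.9%, 55.1% and 73.2% of heavy-chain constant signal in DSS+ImP, against 87.4%, 84.5% and 82.6% in DSS, 83.3%, 86.7% and 76.0% in ImP, and 86.2%, 86.6% and 86.2% in Ctrl. The highest DSS+ImP value was below the lowest of the other 9 libraries. Ighg2c took up most of the rest, at 26.4% ± 7.43 in DSS+ImP, 10.9% ± 2.37 in DSS, 12.04% ± 2.32 in ImP and 9.75% ± 0.827 in Ctrl (SD, n = 3 each). Ighg2b averaged 6.82% ± 1.04 in DSS+ImP, 2.29% ± 0.379 in DSS, 3.601% ± 1.67 in ImP and 2.08% ± 0.737 in Ctrl (SD, n = 3 each), and Ighm between 1.16% and 1.58%.

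The size of these shares depended on the transcript length used. The FPKM of Igha corresponds to a length of 2668 bases, near the longer of its 2 annotated transcripts (2540 and 1100 bases), whereas that of Ighg2c corresponds to 1326 bases, with annotated forms of 1214 and 1111 bases. Heavy-chain genes make a short secreted form and a longer membrane form of their RNA. With counts per kilobase of the shortest transcript, a scale added after the data were seen, Igha averaged 74.5% in DSS+ImP, 90.3% in DSS, 88.1% in ImP and 91.4% in Ctrl, and Ighg2c averaged 15.3% in DSS+ImP, 5.75% in DSS, 6.38% in ImP and 5.08% in Ctrl. On both scales the mean share of Igha was lowest in DSS+ImP and then in ImP, DSS and Ctrl, and that of Ighg2c ran the other way. The ratio of Igha counts to the summed counts of the 4 IgG genes does not use a length: it was 3.05, 2.15 and 4.63 in DSS+ImP, against 13.7, 9.53 and 8.45 in DSS, 8.92, 11.6 and 5.73 in ImP, and 11.8, 11.4 and 11.4 in Ctrl. All 3 DSS+ImP ratios were below all others, and the Ctrl ratios were within a narrow range.

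**Figure D2:**
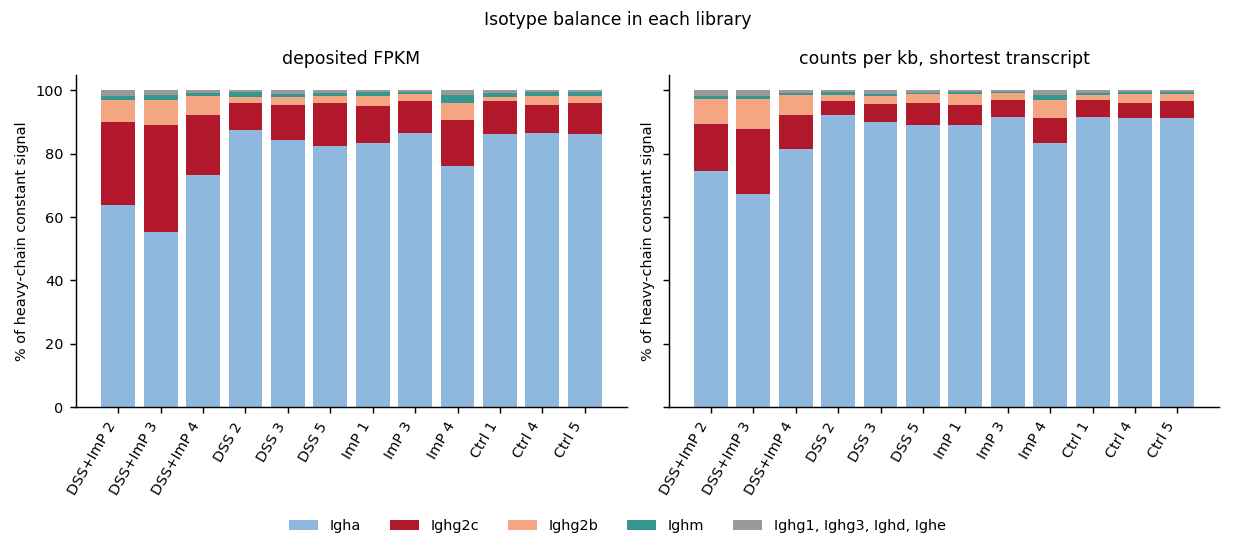
Stacked shares of the heavy-chain constant genes in each library, in percent of their summed signal, by deposited FPKM on the left and by counts per kilobase of the shortest transcript on the right. Igha is lowest in the 3 DSS+ImP libraries on both scales (55.1% to 73.2% on the left), and the share of Ighg2c is smaller on the right (15.3% on average in DSS+ImP, against 26.4% on the left).

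Kappa chains outweighed lambda chains everywhere. Igkc made up 97.5%, 95.9% and 97.9% of light-chain constant FPKM in DSS+ImP, 96.3%, 96.0% and 97.4% in DSS, 96.6%, 96.6% and 93.1% in ImP, and 97.3%, 96.7% and 96.0% in Ctrl, so the groups overlapped. ImP 4 was lowest, and there Iglc2 had 67.5 CPM and Iglc1 60.0 CPM, the highest of any library for both.

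In DSS+ImP, the log2 changes of the members leaned upward. Against DSS, 13 of 210 members tested rose and 0 fell, while Ighv8-4, with 372 counts in all, was left out by the filter on low counts. Of all genes tested, 3.99% rose and 4.04% fell in this comparison, so the share of members that rose, 6.19%, was not far from the background. The 13 were 5 heavy V segments, 2 heavy constant genes and 6 kappa V segments. The median log2 change was 0.90 over members and 0.02 over all genes, with 182 of 210 members above 0. The DSS+ImP libraries were all above the DSS libraries for 43 members, or 20.5%, against 14.2% of all genes, and all below for 1, or 0.476%, against 14.3% of all genes. The number that rose depended on single libraries: it was 33 without DSS+ImP 4, 7 without DSS+ImP 2, 6 without DSS+ImP 3, 4 without DSS 2 and 5 without DSS 5. Of all genes 888 rose in the main fit. In these fits, in the same order, 1324, 463, 268, 382 and 272 rose, of 23014 to 23098 tested.
Against Ctrl, 31 members rose and 2 fell in DSS+ImP, where 10.9% of all genes rose and 11.8% fell, and the median was 0.81. The libraries did not overlap for 33 members that were higher and 4 that were lower, 15.7% and 1.9%, against 19.5% and 20.1% of all genes. The share of members lying higher was thus below that of all genes, and the share lying lower was further below it. Calls in both directions came to 20 without DSS+ImP 2, 17 without DSS+ImP 3, 8 without Ctrl 1, 19 without Ctrl 4 and 16 without Ctrl 5. Of all genes 2422 rose and 2639 fell in the main fit. In these fits, in the same order, 1905, 1537, 1840, 1687 and 1746 rose. Those that fell were 1868, 1605, 2035, 2036 and 2025.

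In DSS alone no member passed the threshold. Against Ctrl, 0 of 210 members rose and 0 fell in edgeR, where 1.21% of all genes rose and 1.59% fell. DESeq2 called 5 members higher and 6 lower, where it called 700 and 797 of 22279 genes. An unadjusted p under 0.05 in edgeR was seen for 27 members, a count for which no share over all genes is given. The median log2 change was -0.06, and the groups did not overlap for 14 members that were higher and 20 that were lower, 6.67% and 9.52%, against 9.91% and 12.5% of all genes. Igha had a log2 change of 0.15 (SE 0.20), Igkc of 0.17 (SE 0.20), Ighg2c of 0.38 (SE 0.41) and Ighg2b of 0.29 (SE 0.51), with adjusted p of 0.749 or more in edgeR. For Ighg2c and Ighg2b the direction turned within the 4 libraries high in liver transcripts, to -0.15 and -0.19. There DSS 2 was the only DSS library, so these values and the median, -0.52, set 1 library against 3. Igkv7-33 had 9.39, 2.17 and 0.0613 CPM in DSS 2, 3 and 5, against at most 0.0357 CPM in Ctrl, and Ighv3-4 had 12.04, 0.248 and 2.21 CPM in DSS, against at most 0.268 CPM in Ctrl. Both were highest in DSS 2, and both were named after their values were seen. Ighv3-4 was not particular to DSS alone: in DSS+ImP against Ctrl it rose by 5.21 on the log2 scale (SE 1.65, adjusted p = 0.04025 in edgeR). Its log2 change in DSS+ImP against DSS was -0.05 (SE 1.29). Igkv7-33 had 664 counts in DSS and 54 in the other groups, so it was a member through DSS alone.

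In ImP alone 1 of 210 members rose and 0 fell against Ctrl, where 1.06% of all genes rose and 0.929% fell. The median was 0.42, and 145 of 210 members were above 0. It was 0.16 without ImP 1 and 0.26 without ImP 4. The groups did not overlap for 25 members that were higher and 4 that were lower, 11.9% and 1.9%, against 9.63% and 11.6% of all genes. A fit over the ImP, DSS and Ctrl libraries had the library set as a term. Its median was -0.06, with 99 of 206 members above 0, so the direction of the median turned. No member passed, where 0 genes rose and 4 fell of 21480. No ImP and Ctrl libraries share a set, so this fit links them only through DSS 2 against DSS 3 and 5, and the turned median rests on DSS 2.
In DSS+ImP against ImP, 3 members rose and 2 fell, where 4.41% of all genes rose and 4.92% fell. The median was 0.32, and between 0.15 and 0.58 with 1 library of these groups left out. Those that rose were Ighv10-1, Igkv12-38 and Ighg2c, and those that fell were Ighv9-2 and Igkv17-121. The groups did not overlap for 12 members that were higher and 4 that were lower, 5.71% and 1.9%, against 14.4% and 13.8% of all genes.
The interaction asks whether the difference between libraries with and without ImP was another under DSS than without it. In edgeR 0 of 210 members passed it, where 0% of all genes passed. DESeq2 called 5 members higher and 1 lower, where it called 330 and 380 of 22279 genes. At an unadjusted p under 0.05 in edgeR were 23 members, again with no share over all genes given. Ighg2c had an interaction of 1.11 on the log2 scale (SE 0.59, adjusted p = 0.498 in edgeR). These comparisons share libraries, so their counts are not independent.

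**Figure D3:**
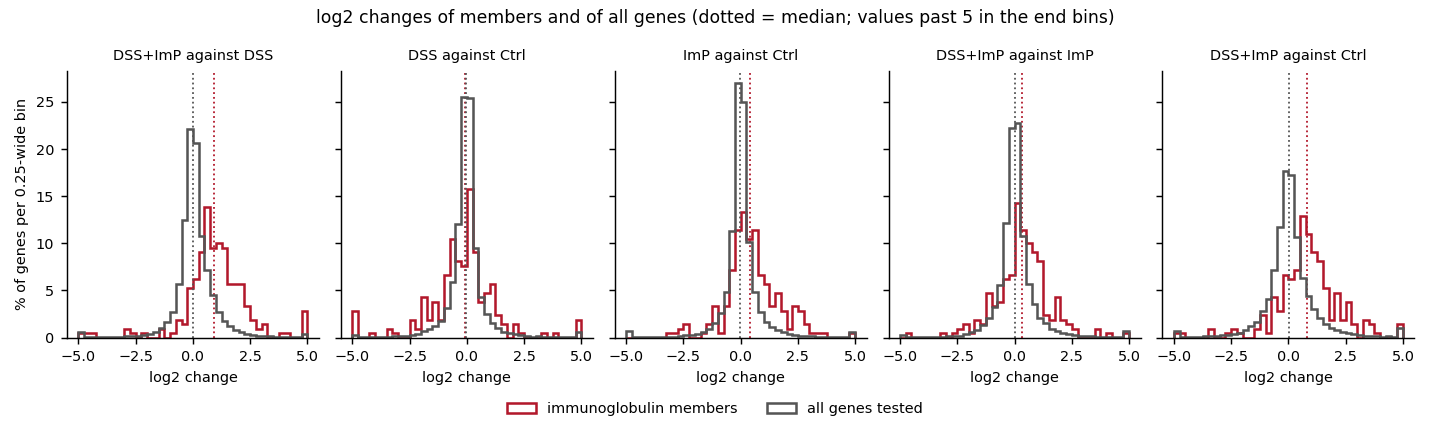
Distribution of log2 changes in 5 comparisons, as a percentage of genes in bins of 0.25, for the 210 members tested (red) and all 22279 genes tested (grey), with dotted medians. The member median lies to the right of the gene median in the DSS+ImP panels (0.90 against DSS, 0.81 against Ctrl) and close to it in DSS against Ctrl (-0.06).

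The V segments that passed in DSS+ImP against DSS ranged from abundant to nearly absent. Ighv10-1 had 41.9, 26.3 and 31.2 CPM in DSS+ImP, against 2.91, 4.15 and 3.62 CPM in DSS, 7.69, 1.63 and 7.42 CPM in ImP, and 6.74, 2.18 and 10.2 CPM in Ctrl. All 3 DSS+ImP libraries lay above the other 9, with log2 changes of 3.22 against DSS (SE 0.59, adjusted p = 0.00904 in edgeR) and 2.57 against ImP (SE 0.57, adjusted p = 0.0148 in edgeR). The call against DSS was kept in each fit that left out 1 library (adjusted p up to 0.047 in edgeR). Its nearest relative, Ighv10-3, is 96.4% identical over the last 280 bases.
Igkv1-117 had 85.5, 48.4 and 53.6 CPM in DSS+ImP, against 23.5, 31.6 and 28.7 CPM in DSS, 47.9, 30.5 and 46.7 CPM in ImP, and 20.8, 26.3 and 34.6 CPM in Ctrl. It rose by 1.16 against DSS (SE 0.25, adjusted p = 0.0179 in edgeR), a call lost without DSS+ImP 2, DSS 2 or DSS 5 (adjusted p 0.065 to 0.0688 in edgeR), and by 1.197 against Ctrl (SE 0.25, adjusted p = 0.00499 in edgeR).
Ighv3-6 had 128.5, 75.6 and 27.4 CPM in DSS+ImP, against 20.5, 23.1 and 19.2 CPM in DSS, and rose by 1.88 (SE 0.44, adjusted p = 0.0249 in edgeR), a call that ended without DSS+ImP 2, DSS+ImP 3 or any 1 DSS library. DSS+ImP 4 stood only a little above DSS.
Low segments passed too. Igkv5-37 had 2.96, 6.65 and 1.77 CPM in DSS+ImP, against 0.108, 0.480 and 0.675 CPM in DSS, and Igkv4-79 had 2.52, 4.18 and 4.80 CPM in DSS+ImP, against 0.668, 0.882 and 0.935 CPM in DSS. Igkv4-79 had 3.66, 3.98 and 1.88 CPM in Ctrl, above all 3 DSS libraries. Its log2 change in DSS+ImP against Ctrl was 0.27 (SE 0.45, adjusted p = 0.721 in edgeR). That of Igkv5-37 was 1.52 in DSS+ImP against Ctrl (SE 0.59, adjusted p = 0.0853 in edgeR). In DSS against Ctrl, Igkv5-37 had a log2 change of -1.64 (SE 0.61, adjusted p = 0.2045 in edgeR). Ighv1-21 had 1.66, 0.114 and 0.231 CPM in DSS+ImP and was listed at 0 in all 3 DSS libraries, so no fold is given. It had 148 counts in DSS+ImP and 32 in the other groups, so it reached the 100 counts of the threshold through the group where it was high, and its call, 1 of the 13, is a description. Single libraries decided these calls: that of Igkv5-37 was lost without DSS+ImP 3 (adjusted p = 0.062 in edgeR), that of Igkv4-79 without DSS+ImP 3, DSS 2 or DSS 5 (adjusted p 0.0624 to 0.0665 in edgeR) and that of Ighv1-21 without DSS+ImP 2 or DSS 5 (adjusted p 0.0543 and 0.0556 in edgeR). The other V segments called were Igkv5-43, Igkv4-53, Igkv4-68, Ighv1-11 and Ighv1-26. In DSS against Ctrl their log2 changes were, in that order, -0.6466, 0.01101, -1.567, -1.885 and 0.0003384, and none passed. In DSS+ImP against Ctrl they were 0.3798, 1.502, 0.5396, 3.263 and 0.8691, and only Igkv4-53 and Ighv1-26 passed. Of its library-scaled counts, Ighv1-11 had 68.09% in DSS+ImP 2, at 16.83 CPM. Its log2 changes in DSS+ImP thus rest largely on that library.

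Against Ctrl the 2 segments that fell in DSS+ImP were low ones. Ighv1-37, 98.6% identical to Ighv1-20, had 0, 0.0572 and 0 CPM in DSS+ImP, against 0.607, 2.76 and 3.55 CPM in Ctrl (adjusted p = 0.00769 in edgeR). Igkv1-88 had 1.70, 0.958 and 0.646 CPM in DSS+ImP, against 1.84, 2.45 and 11.04 CPM in Ctrl, a log2 change of -2.21 (SE 0.73, adjusted p = 0.0469 in edgeR). That call was lost in 8 of the 12 fits that left out 1 library, and without Ctrl 5 the log2 change was -0.96 (adjusted p = 0.324 in edgeR).
Those that rose were 13 heavy V, 13 kappa V and 1 lambda V segment beside Igkc, Ighg2c, Ighg2b and Ighd. Igkv14-100 had 7.38, 14.7 and 4.08 CPM in DSS+ImP, against 0.964, 1.42 and 1.18 CPM in Ctrl, and rose by 2.88 on the log2 scale (SE 0.56, adjusted p = 0.00333 in edgeR). Igkv4-53 had 48.99, 43.2 and 21.8 CPM in DSS+ImP, against 9.81, 14.5 and 15.9 CPM in Ctrl, and rose by 1.502 (SE 0.36, adjusted p = 0.0114 in edgeR). Ighv1-34 and Igkv6-14 had log2 changes of 3.40 (SE 0.88) and 2.91 (SE 0.76), and each call was lost without DSS+ImP 3, without Ctrl 1 and without 1 other Ctrl library. DSS+ImP and Ctrl overlapped for none of these 4 segments.

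The heavy-chain repertoire was led by 1 segment. Ighv9-3 took 33.4%, 41.7% and 42.1% of Ighv counts in DSS+ImP, 43.3%, 39.5% and 46.2% in DSS, 36.0%, 43.6% and 37.1% in ImP, and 48.5%, 51.7% and 45.0% in Ctrl. Its lowest Ctrl share lay above all DSS+ImP and ImP shares and below the 46.2% of DSS 5. In CPM Ighv9-3 had 783, 1020 and 615 in DSS+ImP, against 449, 449 and 589 in DSS, 704, 456 and 776 in ImP, and 514, 747 and 597 in Ctrl. On FPKM it averaged 2171 ± 601 in DSS+ImP, 1234 ± 217 in DSS, 1579 ± 441 in ImP and 1513 ± 334 in Ctrl (SD, n = 3 each), and the next segments by mean FPKM over the 12 libraries were Ighv1-72 (155), Ighv1-26 (116), Ighv3-6 (110) and Ighv1-9 (79.5). Its relative Ighv9-2, which differs at the capital letters printed above, had 20.4, 15.3 and 13.0 CPM in DSS+ImP, against 28.5, 24.95 and 59.5 CPM in ImP, a log2 change of -1.22 (SE 0.30, adjusted p = 0.0264 in edgeR) whose call was lost without DSS+ImP 3, DSS+ImP 4 or ImP 4 (adjusted p 0.0713 to 0.101 in edgeR).

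No kappa segment led in every library. Igkv15-103 led in 9 libraries, Igkv4-91 in DSS 3, and Igkv17-121 in ImP 1 and ImP 4, and the leading segment took 8.65% to 16.5% of Igkv counts. By mean FPKM over the 12 libraries the order was Igkv15-103 (374), Igkv17-121 (207), Igkv4-91 (198), Igkv10-96 (164) and Igkv4-50 (145). Among the 3 lambda segments, Iglv1 held 70.2% to 97.0% of Iglv counts, and rose in DSS+ImP against Ctrl by 1.44 on the log2 scale (SE 0.39, adjusted p = 0.0197 in edgeR), with 64.6, 125 and 47.5 CPM in DSS+ImP, against 20.5, 31.9 and 34.8 CPM in Ctrl. Iglv3 was highest in ImP 4 at 34.6 CPM, with DSS+ImP 3 next at 10.5 CPM, and Iglv2 was highest in ImP 4 and DSS+ImP 2 at 13.1 and 12.4 CPM.

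A heavy and a kappa segment, Ighv1-72 and Igkv17-121, both took a high share in the ImP libraries. The nearest relative of Igkv17-121, Igkv17-127, is 97.9% identical over the last 280 bases, so reads of one can be counted for the other. Igkv17-127 had a log2 change of 0.21 in ImP against Ctrl (SE 0.25, adjusted p = 0.777 in edgeR). Igkv17-121 had 204, 82.9 and 340 CPM in ImP, against 32.6, 51.2 and 39.2 CPM in Ctrl, and was the 1 member past the threshold there, by 2.35 on the log2 scale (SE 0.49, adjusted p = 0.0353 in edgeR). DSS+ImP had 101, 52.6 and 37.8 CPM and DSS 39.0, 21.4 and 18.6 CPM. All 3 ImP libraries were above the Ctrl and DSS libraries, and the call was lost without ImP 1, ImP 4 or any 1 Ctrl library (adjusted p 0.0693 to 0.141 in edgeR). With the library set as a term, which links ImP to Ctrl only through DSS 2 against DSS 3 and 5, the log2 change was 3.34 (adjusted p = 0.212 in edgeR).
Ighv1-72 had 158, 65.5 and 235 CPM in ImP, against 26.9, 41.4 and 58.1 CPM in Ctrl, 37.4 to 83.9 CPM in DSS+ImP, and 13.6 to 35.1 CPM in DSS. It too was higher in every ImP library than in any Ctrl or DSS library, with a log2 change of 1.86 against Ctrl (SE 0.48, adjusted p = 0.0729 in edgeR, 0.0141 in DESeq2), which passed in edgeR only without ImP 3 (adjusted p = 0.0424). Its near copy Ighv1-62-3 had 20.4, 10.3 and 32.0 CPM in ImP, against 4.23, 6.02 and 9.03 CPM in Ctrl.
As shares of the V counts of a library, Ighv1-72 took 8.05%, 6.27% and 11.3% of Ighv counts in ImP, against 2.54%, 2.86% and 4.39% in Ctrl, and 1.19% to 3.58% in DSS+ImP and DSS. Igkv17-121 took 10.5%, 7.42% and 16.5% of Igkv counts in ImP, against 2.80%, 3.78% and 3.08% in Ctrl, and 1.59% to 4.58% in DSS+ImP and DSS. Each share in ImP exceeded that in the other 9 libraries, and among those 9 the 2 shares had a Pearson r of 0.75. The pair had the highest r over the 12 libraries of 532 heavy and kappa pairs (0.978, the next being 0.86), and both values are descriptions of a pair at the top of that ranking, over libraries that share groups.

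ImP and DSS allow the same comparison inside the 5 libraries high in pancreas transcripts. In ImP against DSS, a comparison added after the data were seen, 4 members rose and 0 fell over all 12 libraries, where 0.584% of all genes rose and 0.153% fell. The groups did not overlap for 29 members that were higher and 3 that were lower, 13.8% and 1.43%, against 7.38% and 7.23% of all genes. Igkv17-121 rose by 2.99 (SE 0.51, adjusted p = 0.0209 in edgeR), Ighv1-72 by 2.75 (SE 0.50, adjusted p = 0.0288 in edgeR), Ighv1-62-3 by 2.58 (SE 0.47, adjusted p = 0.0314 in edgeR) and Igkv4-79 by 2.34 (SE 0.47, adjusted p = 0.048 in edgeR). Within the 5 libraries alone the log2 changes of Igkv17-121 and Ighv1-72 were 3.38 and 3.21, with adjusted p = 0.15 in edgeR for both. No member passed there, and 0 of all 21302 genes passed. In DSS+ImP against ImP, Igkv17-121 fell by 1.71 on the log2 scale (SE 0.48, adjusted p = 0.0449 in edgeR), a call lost in 9 of the 12 fits that left out 1 library.

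**Figure D4:**
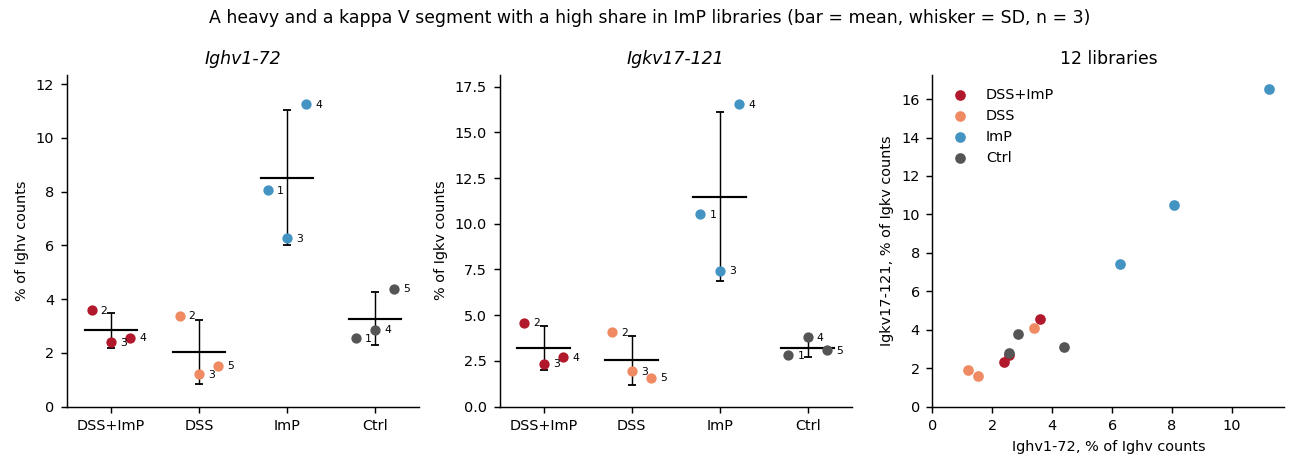
Share of Ighv counts from Ighv1-72 (left) and of Igkv counts from Igkv17-121 (middle) in each library by group, with the mean and SD of 3, and the 2 shares against each other for the 12 libraries (right). The ImP libraries hold the 3 highest values of both, 6.27% to 11.3% for Ighv1-72 and 7.42% to 16.5% for Igkv17-121.

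Some segments were concentrated in 1 library. Of the 199 V members, 17 had at least 50% of their library-scaled counts in a single library, 8 of them with a mean above 1 CPM. The 17 include segments, among them Ighv1-21 and Igkv7-33, that reached the count threshold only through the group where they were highest. For such segments the concentration was not independent of how members were chosen, and the counts by library below include them. Igkv12-38 had 59.1 CPM in DSS+ImP 3 and at most 1.49 CPM in any other library, and Ighv8-5 had 60.2 CPM in DSS 5 and at most 1.44 CPM elsewhere. Igkv4-58 had 57.7 CPM in DSS+ImP 4 and at most 6.48 CPM elsewhere, and Igkv4-86 had 30.4 CPM in ImP 1 and at most 2.53 CPM elsewhere. These 4 were chosen after their values were seen. By library, ImP 4 held 4 such segments, ImP 1 held 3, DSS 5 and DSS+ImP 2 held 2 each, and DSS 3 and ImP 3 held none. Igkv12-38 nevertheless passed in DSS+ImP against ImP (log2 change 6.97, SE 1.85, adjusted p = 0.0353 in edgeR), and did not without DSS+ImP 3 (adjusted p = 0.42 in edgeR) or without any 1 ImP library (adjusted p 0.0619 to 0.119 in edgeR).

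The overlap of 2 libraries in segment use, the sum over segments of the smaller of their 2 shares, had its lowest group medians in DSS+ImP. For Ighv it had a median of 74.7% within DSS+ImP, 80.6% within DSS, 79.0% within ImP and 83.3% within Ctrl, against 77.3% over the 54 pairs from different groups (70.5% to 85.1%). For Igkv the median was 74.6% within DSS+ImP, 79.5% within DSS, 79.7% within ImP and 79.6% within Ctrl, against 76.4% between groups. Every within-group median other than those of DSS+ImP was thus above the between-group median, and all lay inside the range of the pairs between groups. No test was run on these pairs, which share libraries.

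Diversity was summarised as the effective number of segments, the exponential of the Shannon entropy of their shares, which equals the number of segments if all were used equally. Over Ighv it was 26.0, 18.6 and 18.4 in DSS+ImP, 18.0, 21.2 and 16.2 in DSS, 22.5, 16.7 and 19.3 in ImP, and 15.0, 13.3 and 16.8 in Ctrl. The DSS+ImP libraries lay above the Ctrl libraries, while DSS 5 and ImP 3 lay inside the Ctrl range. Leaving out the most abundant segment, Ighv9-3, changed that order: the group means were then 48.3 in DSS+ImP, 49.7 in DSS, 43.2 in ImP and 49.7 in Ctrl, and ImP 4 was lowest at 39.0. Over Igkv the effective number was 45.7, 44.8 and 43.6 in DSS+ImP, against 42.2, 43.2 and 40.4 in DSS, 41.0, 40.4 and 36.4 in ImP, and 40.7, 40.5 and 42.3 in Ctrl. All 3 DSS+ImP values were above the other 9, DSS+ImP 4 by a small margin over DSS 3, and no test was run on this score. Without the leading segment of each library that separation ended, with DSS+ImP 4 at 46.6 and DSS 5 at 46.8. With V counts thinned to the shallowest library, the DSS+ImP means were 20.9 for Ighv and 44.6 for Igkv, against 15.03 and 41.1 in Ctrl.

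**Figure D5:**
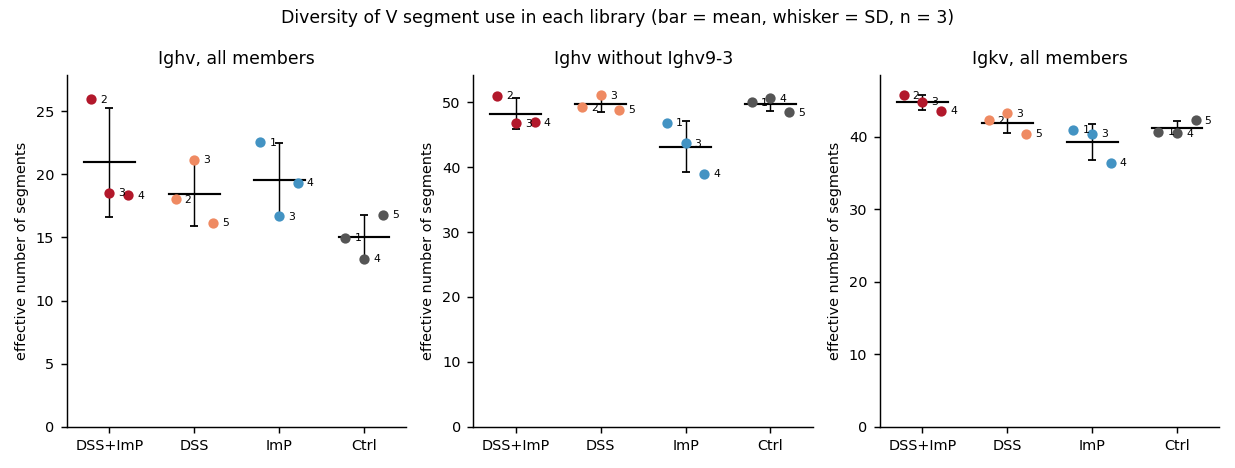
Effective number of segments in each library by group, for Ighv (left), Ighv without Ighv9-3 (middle) and Igkv (right), with the mean and SD of 3 and axes from 0. On the left DSS+ImP libraries lie at 18.4 to 26.0 and Ctrl libraries at 13.3 to 16.8, with DSS 5 and ImP 3 inside the Ctrl range, and on the right DSS+ImP libraries are highest (43.6 to 45.7).

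Other genes of the B lineage were read from lists, and these give context for the antibody genes. The 13 plasma-cell genes summed to between 1690 and 1910 CPM in DSS+ImP, between 1646 and 1712 CPM in DSS, between 1823 and 2145 CPM in ImP, and between 1704 and 1791 CPM in Ctrl. In DSS+ImP against DSS 1 of them rose and 0 fell: Pou2af1, a B-lineage coactivator, by 1.28 (SE 0.35, adjusted p = 0.0451 in edgeR). Jchain, which joins IgA and IgM into polymers, had 702, 683 and 533 CPM in DSS+ImP, against 433, 471 and 517 CPM in DSS, 822, 612 and 900 CPM in ImP, and 513, 565 and 617 CPM in Ctrl. DSS+ImP lay above DSS without overlap, with a log2 change of 0.43 (SE 0.15, adjusted p = 0.102 in edgeR). Of the 14 B-cell genes, 0 passed in DSS+ImP against DSS, DSS against Ctrl or ImP against Ctrl (medians 1.65, 0.19 and 1.65), and 2 rose in DSS+ImP against Ctrl. Among 13 genes of germinal centres and class switching, 0 passed in DSS+ImP against DSS. Against Ctrl, 3 of these rose and 3 fell in DSS+ImP, and of the plasma-cell genes 3 rose (Pou2af1, Derl3 and Mzb1) and 1 fell (Txndc5). In DSS+ImP against ImP, 0 of the 13 plasma-cell genes rose and 2 fell. Tnfrsf17 had a log2 change of -1.37 (SE 0.32, adjusted p = 0.019 in edgeR). Txndc5 had one of -0.36 (SE 0.099, adjusted p = 0.0435 in edgeR). Of markers of other cell types, 2 of 12 T-cell genes and 2 of 10 epithelial genes fell in DSS+ImP against DSS, and 0 of 6 smooth-muscle genes passed. Against Ctrl, 7 of the T-cell genes and 5 of the epithelial genes fell in DSS+ImP, and 2 of the smooth-muscle genes rose. The T-cell genes summed to 58.6 to 72.8 CPM in DSS+ImP, against 78.6 to 92.8 CPM in DSS and 109.7 to 131 CPM in Ctrl. The epithelial genes summed to 15670 to 21940 CPM in DSS+ImP, against 25360 to 26600 CPM in DSS and 33200 to 37120 CPM in Ctrl. In DSS against Ctrl the median log2 change of the 10 epithelial genes was -0.02, with 0 that rose and 1 that fell. That was Car1, with a log2 change of -1.77 (SE 0.31, adjusted p = 0.0104 in edgeR). The part of these marker levels in the immunoglobulin values was not tested.

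Genes of antibody transport and antibody receptors differed in direction. Pigr, the epithelial IgA transporter, had 2545, 2667 and 3199 CPM in DSS+ImP, against 4927, 3491 and 4915 CPM in DSS, 4576, 3390 and 3198 CPM in ImP, and 2579, 2948 and 2934 CPM in Ctrl. It fell in DSS+ImP against DSS by 0.66 on the log2 scale (SE 0.17, adjusted p = 0.0339 in edgeR), and its log2 change in DSS against Ctrl was 0.66 (SE 0.17, adjusted p = 0.0622 in edgeR). The summed epithelial markers were also lower in DSS+ImP, at 15670 to 21940 CPM, than in DSS, at 25360 to 26600 CPM, and their part in the Pigr value was not tested. Of the 10 genes tested on this list, 5 rose in DSS+ImP against DSS, namely the IgG receptor genes Fcgr1, Fcgr2b, Fcgr3 and Fcgr4 and the signalling chain gene Fcer1g, by 1.15 to 1.495 on the log2 scale. Fcgr2b, the inhibitory IgG receptor, had 79.7, 98.4 and 59.5 CPM in DSS+ImP, against 20.2, 39.2 and 32.7 CPM in DSS. Of 16 genes of plasma-cell homing and survival, 3 rose and 0 fell: Cxcl13, the B-cell chemokine, by 3.39 (SE 0.59, adjusted p = 0.00757 in edgeR), Cxcl12 by 1.01 (SE 0.22, adjusted p = 0.0191 in edgeR) and Il6 by 3.70 (SE 1.04, adjusted p = 0.0482 in edgeR). Cxcl13 had 151, 295 and 44.7 CPM in DSS+ImP, against 19.0, 14.4 and 13.4 CPM in DSS. In DSS against Ctrl, 1 of these 16 genes rose and 1 fell. Ccl28, a chemokine that draws IgA plasma cells to the colon, rose by 1.42 (SE 0.25, adjusted p = 0.01 in edgeR). It had 141, 106 and 223 CPM in DSS, against 52.2, 63.2 and 60.0 CPM in Ctrl. Il5 fell (adjusted p = 0.0355 in edgeR), but its change was poorly estimated, so no fold is given. In DSS+ImP against DSS its fitted log2 change was 0 without an SE, and in the interaction its SE was 1918.

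Outside the members, the 5 genes whose log2 CPM followed that of Igha most closely over the 12 libraries were Igkj2 (Pearson r 0.95), the unnamed ENSMUSG00000120754 (0.94), Tent5c (0.94), Ighj3 (0.92) and Ccl20 (0.92). Igkj2 and Ighj3 are joining segments of kappa and heavy chains, Tent5c extends poly(A) tails, and Ccl20 is a chemokine. These correlations are descriptions over libraries that share groups.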

How the data were processed

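Poly(A)-selected RNA from mouse colon was sequenced in 12 libraries, 3 in each of 4 groups. The authors deposited 1 table with, for each gene and library, an estimated count and an FPKM value. Per the submitters' processing notes, the tools included StringTie 1.3.4d, HISAT2 2.0.4 and cutadapt 1.9, and the build was GRCm38. Their settings and the use of strand in counting are not given in the sources used here. As deposited, the estimated counts are whole numbers that peak at 4 (12215 values of 4, against 7060 of 3 and 4182 of 5), so they need not be counts of read pairs. The FPKM values are scaled to transcript length and library size, per the file headers, which name the unit. Gene positions in the table equal those of GENCODE M21 for 597 of 33695 shared identifiers and for 0 of 211 members, so chromosomes only are given.

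Counts were tested with edgeR 4.0.16 (R 4.3.3) by the quasi-likelihood F test with TMM scaling, 1 coefficient per group over the 12 libraries, after filterByExpr, which left 22279 genes. P-values were adjusted over all of these by the Benjamini-Hochberg method and called below 0.05. The steps were tested on simulated data first. CPM uses TMM library sizes. Shares, diversity and overlap were described without a test. Alternatives were DESeq2 1.42.0, limma 3.58.1 on log2(FPKM + 1), other filters and library sizes, counts divided by 4, other sets of libraries, a replicate block and each library left out. The members and the gene lists were chosen with earlier results of these data known. Genes named were all constant genes, up to 6 V segments in each direction by p in each comparison, the most abundant segments, those leading a library, up to 4 genes of a list by p, and those closest to Igha.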

Additional observations from a re-analysis of the deposited data

How the results depend on the processing

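The number of members called shifted with the setting, and so did that of all genes. Brackets give all genes called higher and lower, of 22279 tested unless another total is given. In DSS+ImP against DSS the number was 13 of 210 members in edgeR (888 and 901). It was 40 in DESeq2 (1564 and 1624) and 1 with the replicate block (204 and 147). With at least 1 CPM in 6 libraries it was 20 of 162 (1054 and 1077 of 15779). With counts divided by 4 it was 21 of 191 (1113 and 1084 of 18031). With 1 library left out it was 4 (382 and 376 of 23065) to 33 (1324 and 1292 of 23064). In DSS against Ctrl it was 0 in edgeR (269 and 354) and 11 in DESeq2 (700 and 797). It was 2 with the 1 CPM filter (328 and 452 of 15779) and 2 in limma (336 and 398 of 14248). With counts divided by 4 it was 1 (309 and 451 of 18031), and with only these groups 4 (406 and 471 of 20461). With 1 library left out it was 0 to 2, the 2 without ImP 4 (300 and 346 of 23077). In ImP against Ctrl it was 1 in edgeR (236 and 207), 13 in DESeq2 (674 and 617) and 2 in limma (249 and 383 of 14248). It was 4 with only these groups (202 and 314 of 20637) and 0 with no filter (139 and 92 of 34214). With the block it was 0, where 0 of all genes were called. It was 0 with the library set as a term (linked through DSS 2 alone), with 0 and 4 of 21480. With 1 library left out it was 0 to 3. The 3 came without DSS+ImP 4 (266 and 252 of 23064) or ImP 3 (145 and 63 of 23093). In DSS+ImP against ImP it was 5 in edgeR (982 and 1097), 16 in DESeq2 (1413 and 1750) and 1 with the block (345 and 343). It was 2 with no filter (779 and 849 of 34214) and 2 with only these groups (621 and 532 of 20859). With 1 library left out it was 3 to 11, the 11 without DSS+ImP 4 (1171 and 1319 of 23064). In DSS+ImP against Ctrl it was 33 in edgeR (2422 and 2639), 19 with no filter (2011 and 2181 of 34214) and 5 with the block (835 and 1027). With 1 library left out it was 8 (1840 and 2035 of 23121) to 40 (2375 and 2500 of 23064). The interaction gave 0 in edgeR (0 and 0), 6 in DESeq2 (330 and 380) and 0 to 2 with 1 library left out. The 2 came without DSS+ImP 4 (244 and 232 of 23064). Some settings left fewer libraries or genes, while DESeq2 and the replicate block kept all of them. The cause of these shifts was not tested.

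Deviations from group means correlated at -0.11 to 0.083 for the 9 same-numbered pairs and at -0.104 to 0.14 for the 45 others. With 3 libraries a group, and DSS split by the liver and pancreas traces, these values cannot decide whether replicate numbers pair libraries. Why calls were lost under the block was not tested. The log2 change in DSS against Ctrl reversed for Ighg2c to -0.15 within the libraries high in liver transcripts and -0.14 with the library set as a term, and for Ighg2b to -0.19 and -0.19, and to -0.034 without Ctrl 1, its values with 1 library left out reaching 0.61. Of 830 alternative values of 45 named gene results, 705 kept their direction and side of the threshold, 114 lost the call, 6 gained one and 5 reversed.

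Summed FPKM put the members at 4.70% in DSS+ImP, 2.36% in DSS, 3.59% in ImP and 2.35% in Ctrl. By counts, Igha took 74.2% in DSS+ImP, 90.1% in DSS, 87.8% in ImP and 91.2% in Ctrl, and per kilobase of the shortest transcript 74.5% in DSS+ImP, 90.3% in DSS, 88.1% in ImP and 91.4% in Ctrl. Ighg2c took 15.4% in DSS+ImP, 5.79% in DSS, 6.42% in ImP and 5.12% in Ctrl by counts, and 15.3% in DSS+ImP, 5.75% in DSS, 6.38% in ImP and 5.08% in Ctrl per kilobase. Ighg2b in DSS+ImP took 7.99% by counts and 7.92% per kilobase. Without the leading segment of each library, the effective number was 48.3 in DSS+ImP, 49.7 in DSS, 43.2 in ImP and 49.7 in Ctrl for Ighv, and 47.7 in DSS+ImP, 45.4 in DSS, 43.9 in ImP and 44.9 in Ctrl for Igkv.

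With 3 libraries a group and no record of separate animals, the values of segments and constant genes alike are uncertain. Reads of near-identical segments can also be shared, and how far this moved single-segment values was not measured. At low counts, as for Ighv1-21 and Ighv1-37, a few read pairs decide the value.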
